A study of Mus musculus with 8 samples.

Results

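The regions described here are 3335 stretches of the mouse genome where Smad4 was detected in wild-type CD4+ T cells, with their centre inside protein-coding genes shorter than 100 kb. They are 21% of the 15882 WT-only regions, that is, regions with a peak in both WT libraries and in neither knockout library. They were chosen by the peak calls of the 4 libraries and by gene position. A region was kept where its centre lay on an autosome, inside a coding gene, more than 1 kb from every coding gene end, and where the longest gene there was under 100 kb. Only the centre had to lie inside, and 15 regions (0.450%) ran past an end of the gene that held their centre. The presence of both WT peaks and the absence of KO peaks are therefore a description and not a finding.

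Chromatin immunoprecipitation with an antibody to Smad4, followed by sequencing, was carried out in 2 KO and 2 WT libraries. KO cells came from CD4cre;Smad4fl/fl mice, in which a Cre driven by Cd4 regulatory sequence deletes floxed Smad4 in the T lineage from the double-positive thymocyte stage on, so other cells keep the gene. WT cells carried no such deletion. All cells were CD4+ T cells of C57BL/6 background from spleen and lymph nodes, activated and held with IL-6 plus a drug that blocks the TGF-β receptor, and taken at 12 h. KO replicate 1 was a pool of male and female animals and KO replicate 2 was male, whereas both WT replicates were female, so sex and genotype cannot be told apart. No animal age is given, and the labels do not say whether replicates were separate animals. The 4 input samples, chromatin without the antibody, were not analysed here. The KO lists held 564 and 424 peaks, against 27120 and 19792 in the WT lists, and read depth is unknown, so the gap in number may also follow depth. Smad4 protein left in KO cells was not measured.

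Smad4 is the partner that receptor-activated SMAD proteins of the TGF-β and BMP branches share. It binds DNA through short SMAD boxes and GC-rich sites, usually beside factors that define the cell type. SKI and SKIL are corepressors that bind SMAD4, and TGF-β signalling leads to their degradation. In CD4+ T cells, IL-6 through STAT3 and TGF-β through SMADs together direct the Th17 fate, and the study's title concerns suppression of that fate by SKI with SMAD4.

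Where a region covered an alternative start of the gene it lies in, the 200 bases before that start can be shown. They are printed for 7 genes because starts covered by regions were rich in G, C and the GC box GGGCGG, a site of KLF and SP factors. The sequences are from RefSeq on GRCm38.p6, run 5′ to 3′ on the strand of the gene, and carry the GC box of either strand in capitals. Tgif1, at chr17:70851211-70851410 on the minus strand, encodes a homeobox corepressor of SMAD complexes. Ubtf, at chr11:102317872-102318071 on the minus strand, encodes an activator of RNA polymerase I. Nfil3, at chr13:52981040-52981239 on the minus strand, encodes a bZIP repressor. Arid1a, at chr4:133753986-133754185 on the minus strand, encodes a subunit of SWI/SNF chromatin remodellers. Gata3, at chr2:9878601-9878800 on the minus strand, encodes the factor that specifies Th2 cells. Nfkb2, at chr19:46304537-46304736 on the plus strand, encodes p100 of the non-canonical NF-kB pathway. Hif1a, at chr12:73907667-73907866 on the plus strand, encodes the oxygen-regulated factor that favours glycolysis and Th17 cells.
Tgif1: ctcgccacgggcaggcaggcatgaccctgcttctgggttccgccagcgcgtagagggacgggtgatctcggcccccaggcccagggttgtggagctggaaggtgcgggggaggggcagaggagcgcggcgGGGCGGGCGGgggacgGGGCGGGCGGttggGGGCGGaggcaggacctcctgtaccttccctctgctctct
Ubtf: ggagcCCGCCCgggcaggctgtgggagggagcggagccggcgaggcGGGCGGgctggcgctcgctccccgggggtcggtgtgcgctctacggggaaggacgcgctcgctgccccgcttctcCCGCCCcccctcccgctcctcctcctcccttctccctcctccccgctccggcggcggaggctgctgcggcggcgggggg
Nfil3: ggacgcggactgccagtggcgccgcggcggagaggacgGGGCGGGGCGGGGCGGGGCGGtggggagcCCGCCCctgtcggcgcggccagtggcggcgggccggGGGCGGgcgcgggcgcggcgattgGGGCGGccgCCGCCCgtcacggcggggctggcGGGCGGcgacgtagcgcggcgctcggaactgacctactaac
Arid1a: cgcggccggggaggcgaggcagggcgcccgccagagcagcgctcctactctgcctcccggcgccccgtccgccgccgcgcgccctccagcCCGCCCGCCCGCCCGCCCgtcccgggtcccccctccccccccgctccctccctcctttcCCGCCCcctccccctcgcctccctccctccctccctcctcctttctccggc
Gata3: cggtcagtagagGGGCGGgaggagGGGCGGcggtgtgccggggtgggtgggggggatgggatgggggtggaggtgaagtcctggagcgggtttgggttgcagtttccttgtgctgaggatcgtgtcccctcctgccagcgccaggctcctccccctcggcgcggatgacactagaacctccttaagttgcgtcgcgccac
Nfkb2: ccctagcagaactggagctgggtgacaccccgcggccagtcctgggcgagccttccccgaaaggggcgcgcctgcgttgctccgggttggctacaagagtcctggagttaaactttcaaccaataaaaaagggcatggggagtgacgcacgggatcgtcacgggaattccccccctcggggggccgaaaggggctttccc
Hif1a: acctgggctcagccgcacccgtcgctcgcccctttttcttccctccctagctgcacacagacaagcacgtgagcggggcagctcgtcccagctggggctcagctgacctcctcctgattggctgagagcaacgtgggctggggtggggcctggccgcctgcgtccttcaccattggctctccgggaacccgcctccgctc

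The marked box occurred 5 times before the Tgif1 start, 3 times for Ubtf, 9 times for Nfil3, 5 times for Arid1a and 2 times for Gata3, and neither Nfkb2 nor Hif1a held one in these 200 bases. Nfil3 had the highest GC content of the 7, 83.5%, and Nfkb2 the lowest, 63.0%. The SMAD box CAGAC occurred 1 time in the Hif1a stretch and was absent from the other 6 stretches. The region over the Tgif1 start was 4872 bp wide in WT replicate 1 and 4466 bp in WT replicate 2, and it ran 436 bp past the outermost start as well. The Nfil3 region likewise ran 335 bp past the gene end. Over the Gata3 start the peaks measured 1224 and 1332 bp.

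The printed starts belong to a larger group of covered starts and do not stand for its base composition. Of the 3335 regions, 322 contained the whole 300-base window of an own alternative start, 250 bases before it and 50 after, so one sequence per region could be read. The median GC content of these 322 windows was 64.3%, with quartiles of 58.1 and 69.7%. Their median CpG ratio, the observed over the expected count of CG, was 0.829. The 200 bases printed above held 73.5 to 83.5% GC for Tgif1, Ubtf, Nfil3 and Arid1a, above the upper quartile. Gata3 and Hif1a had 67.5% and Nfkb2 63.0%. Of the starts taken by the same ranking but not printed, Hnrnpl had 59.0%, Pfn1 56.0%, Sin3a 63.0% and Aldoa 66.5%. These stretches of 200 bases are shorter than the windows of 300 bases. In 1778 windows of internal starts of genes under 100 kb that met no peak of any library, the GC content was 52.7% and the CpG ratio 0.278. Starts at the ends of coding genes showed the same pair of levels, 64.7% in 2936 windows inside WT-only regions and 52.3% in 9554 windows without any peak. Covered internal starts and covered gene-end starts were thus close in base composition, and so were the uncovered ones.

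The GC box GGGCGG, on either strand, was found in 72.4% of the 322 covered internal windows and in 28.6% of the uncovered ones, against 45.7% of all 18289 autosomal coding start windows. GGCGCC, the GC-rich SMAD site, was found in 26.7% of covered and 8.72% of uncovered internal windows, against 15.3% of all windows. The SMAD box CAGAC was found in 49.4% of covered and 52.9% of uncovered windows, against 48.8% of all windows, and its shares lay close together. Several letter patterns had the lower share in covered windows. AGATAA, the GATA site, was in 4.35% of covered and 13.2% of uncovered windows, against 9.95% of all. TGANTCA, the AP-1 site, was in 5.90% of covered and 8.38% of uncovered windows, against 7.28% of all. CANNTG, the E-box, was in 61.2% of covered and 73.2% of uncovered windows, against 69.4% of all. GC content moved with these shares, and its part in them was not tested. These 322 windows say nothing of the regions away from starts, whose sequence was not used here.

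**Figure D1:**
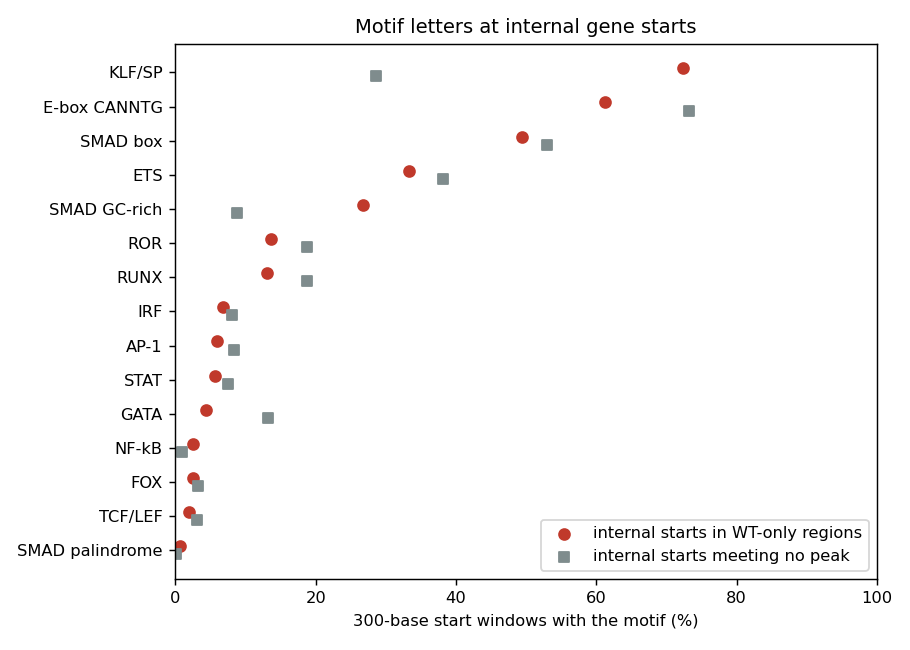
Share of 300-base start windows, in percent on the horizontal axis, that hold the letters of each of 15 motifs on either strand. Red circles are the 322 internal starts in WT-only regions and grey squares the 1778 internal starts that meet no peak; KLF/SP at 72.4% against 28.6% is the widest gap, and the SMAD box at 49.4% against 52.9% one of the narrow ones.

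The median summed peak width per region was 562 bp in WT replicate 1, with quartiles of 406 and 812 bp, and 450 bp in WT replicate 2, with quartiles of 320 and 680 bp. In 96.3% of regions each library had a single peak. The centres of the widest peaks of both libraries lay a median of 43 bp apart, and 75.1% lay within 100 bp, a closeness that the required overlap of both peaks largely fixes. Widths ranked alike in both libraries, with a Spearman rho of 0.709 over the 3335 regions, which share their 2 libraries and are not independent. WT replicate 1 was the wider one in 68.8% of regions. The smallest width of its list was reached by 6.87% of regions in WT replicate 1 and by 15.1% in WT replicate 2, so widths carry little rank at the narrow end.

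The location class set the width less within gene interiors than between interiors and gene ends. Regions inside genes of 100 kb or more had medians of 558 bp in WT replicate 1 and 440 bp in WT replicate 2. Regions outside coding genes had 550 and 436 bp. Regions within 1 kb of a gene end were wider, with 666 and 588 bp. The order of the 4 classes was the same in both WT libraries, and 2 libraries allow no test of it. The classes differed more in density, at 9.15 regions per Mb inside genes under 100 kb, over 364.5 Mb, against 4.60 inside longer genes, 70.7 at gene ends and 3.17 outside genes.

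**Figure D2:**
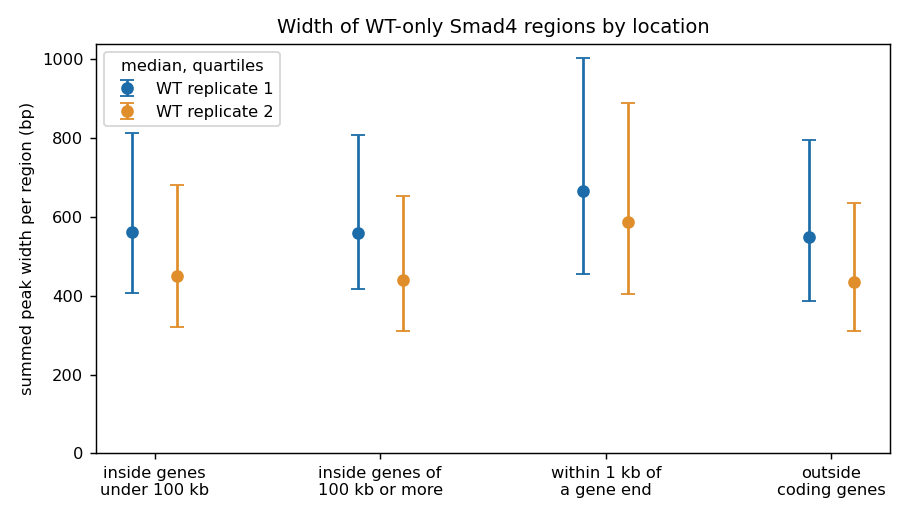
Summed peak width per WT-only region, in bp, for 4 location classes, with the 3335 regions inside genes under 100 kb on the left. Points are medians and bars run between the quartiles over regions, blue for WT replicate 1 and orange for WT replicate 2; the medians of 562 and 450 bp lie close to those of long genes and below the 666 and 588 bp of gene ends.

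Before the KO peaks were taken away, the same territory held 3461 reproducible WT regions. Of these, 126 (3.64%) met a KO peak, a smaller share than the 5.08% inside long genes and the 5.66% outside genes and a larger one than the 1.52% at gene ends. The 126 had median widths of 937 bp in WT replicate 1 and 802 bp in WT replicate 2, above those of the 3335 kept. The KO libraries placed 115 peaks (20.4%, 95% Clopper-Pearson interval 17.1 to 24.0%) and 74 peaks (17.5%, 14.0 to 21.4%) in this territory, against 6205 (22.9%, 22.4 to 23.4%) and 4279 (21.6%, 21.1 to 22.2%) in the WT libraries. These intervals, like all others here, cover only the error of counting, and regions that neighbour each other are not independent. Of the 3335 kept regions, 10 (0.300%) lay within 1 kb and 122 (3.66%) within 10 kb of a KO peak, and the median gap was 755 kb. The KO lists held only 564 and 424 peaks in all, and regions that met one were left out by the choice. The shares that an even spread of KO peaks would give were not computed, so these values are only a description.

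Much of the WT signal in gene interiors was seen by one library. In WT replicate 1, 2679 of its 6205 peaks in the territory (43.2%) met no peak of WT replicate 2, and in WT replicate 2, 702 of 4279 (16.4%) met none of WT replicate 1. Such peaks were narrow, with median widths of 302 bp in WT replicate 1 and 242 bp in WT replicate 2, where 242 bp is the smallest width of the list. They are not among the 3335.

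The thresholds of the choice cut through a continuous range. The members nearest to a gene end lay 1004 bp away in Trim41 and 1007 bp away in Maff and Cyp4f37, and the nearest regions left out lay 999 bp away at Atl3 and 995 bp away at Ptpn22 and Orai1. The longest genes kept were Arsg with 99998 bp and Vmp1 with 99979 bp, and the shortest left out were Map2k4 with 100116 bp and Inpp5d with 100199 bp. The members nearest to a KO peak were 483 bp from it in Cd247, 545 bp in Eps15l1 and 547 bp in Bcl3, whereas regions in Gtf2a1 and Ermap overlapped a KO peak by 127 and 193 bp and were left out.

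**Figure D3:**
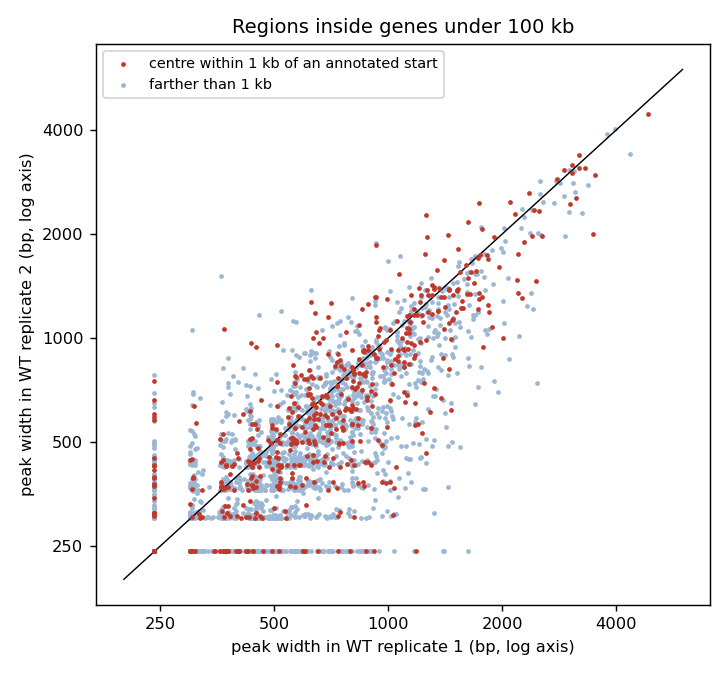
Peak width in WT replicate 2 against WT replicate 1, in bp on log axes, for regions in genes with an annotated start; the line marks equal widths. Red points are the 535 regions within 1 kb of an annotated start and pale points the 2141 farther away; red points spread over the whole range and are frequent at the wide end, and the lines of points at 240 and 242 bp are the smallest widths of the lists.

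Regions crowded towards the start of genes. Strand was known for 2676 of the regions, and 67.3% of them (65.5 to 69.1%) lay nearer to the outermost start than to the far end. Their median distance was 11.2 kb from the start and 22.7 kb from the far end. Within 5 kb of the start lay 29.6% of them, and within 5 kb of the far end 9.90%. Counted per Mb of territory, density was 22.6 in the first of 10 equal parts of the gene and 13.3 in the second, and it came down to 4.33 in the last. The slope stayed when stretches within 1 kb of any annotated start were left out of regions and territory alike, at 15.1 per Mb in the first part and 4.19 in the last.

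**Figure D4:**
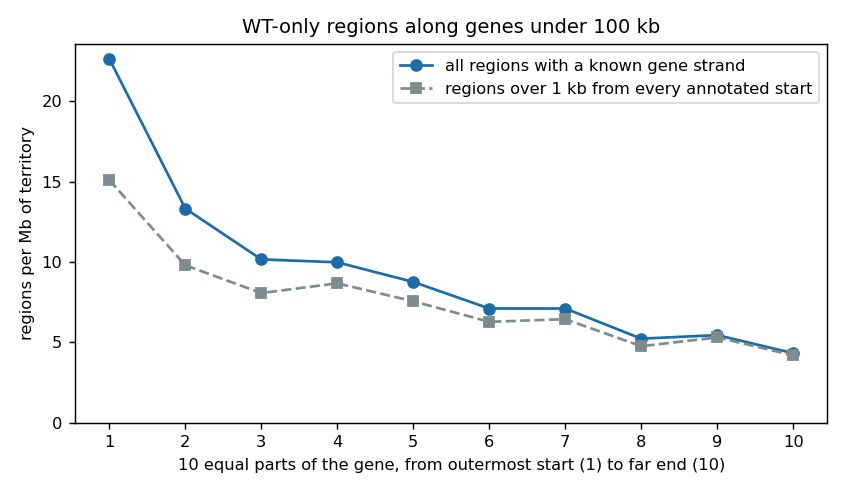
Regions per Mb of territory in 10 equal parts of genes under 100 kb, from the outermost start at 1 to the far end at 10. Blue circles are all 2676 regions with known strand, with 22.6 per Mb in the first part and 4.33 in the last; grey squares leave out stretches within 1 kb of an annotated start, with 15.1 and 4.19.

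Annotated starts were a second place of crowding. Any start of a coding gene counted, also one within 1 kb of a gene end, so not all were alternative starts deep inside the gene. Within 1 kb of an annotated start lay 535 of 2676 regions (20.0%, 18.5 to 21.6%), while such stretches made up 1.84% of the territory. Density was 99.99 regions per Mb there and 7.48 per Mb elsewhere. Regions near a start were wider, with medians of 692 and 598 bp in WT replicates 1 and 2, against 546 and 436 bp for the 2141 regions farther away. Ranked by summed width, 108 of the widest 268 regions (40.3%) were near a start, against 28 of the narrowest 268 (10.4%). Looked at from the side of the starts, 373 of 2492 internal starts (15.0%) lay in a WT-only region, against 2873 of 14822 starts at gene ends (19.4%).

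The 10 widest regions measured from 6300 to 9338 bp when both WT widths were summed. After Tgif1, described above, came Rara, the retinoic acid receptor alpha gene, with 3972 bp in WT replicate 1 and 4040 bp in WT replicate 2, at chr11:98941451-98945584. Trib2, which encodes a pseudokinase, followed with 4364 and 3410 bp at chr12:15813445-15817875. The region in Myh9, the gene of a non-muscle myosin heavy chain, measured 3796 and 3894 bp and lay 41.8 kb from any start, in the middle of the gene. Zfp36l2, which encodes a protein that destabilises AU-rich mRNAs, had 3902 and 3666 bp in a gene of 4.02 kb. Ubtf had 3204 and 3398 bp, and the splicing factor gene Hnrnpl 3522 and 2958 bp. Cpt1a, the gene of mitochondrial fatty acid import, had 3304 and 3104 bp. Pmepa1, a TGF-β-induced antagonist of SMAD signalling, had 3542 and 2866 bp. The last of the 10 lay where Eno3 and Pfn1 overlap, with 3188 and 3112 bp. Of these 10, 6 ran past an end of their gene, by 913 bp in Trib2, 898 bp in Zfp36l2, 441 bp in Pmepa1, 436 bp in Tgif1, 202 bp in Hnrnpl and 148 bp in Cpt1a. In all 10 both libraries called over 2 kb, and the closest KO peak was 311 kb away or more.

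The 3335 regions fell in 2126 genes, 13.5% of the 15740 coding genes that had territory of this kind. One region was held by 1479 genes, 2 or more by 647 genes, and 5 or more by 83, and 30 regions lay in 2 genes at once. Holding genes were long for their class, with a median of 34.2 kb against 17.7 kb for all 15740. The share of genes with a region was 3.91% (3.38 to 4.49%) for lengths under 10 kb, 11.1% for 10 to 25 kb, 19.9% for 25 to 50 kb and 28.7% (26.9 to 30.5%) for 50 to 100 kb. Density ran the other way, with 11.8, 9.85, 9.26 and 8.50 regions per Mb of territory in the same order of lengths. Chromosome 11 had the highest density, 14.1 per Mb, and chromosome 14 the lowest, 5.96 per Mb.

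Regions that shared a gene sat close together, and those in genes with 5 or more were wider than lone ones in both WT libraries. In genes with 2 to 4, the width in WT replicate 2 was close to that of lone regions. The 1459 regions alone in their gene had medians of 514 and 438 bp in WT replicates 1 and 2, the 1360 in genes with 2 to 4 had 578 and 444 bp, and the 516 in genes with 5 or more had 629 and 526 bp. The next WT-only region lay a median of 20.1 kb away for lone regions, 4.24 kb in genes with 2 to 4 and 2.66 kb in genes with 5 or more, a distance that the grouping itself shortens. Nearness to an annotated start was counted only over the regions of known strand in each group. Such a start lay within 1 kb of 29.7% of these among lone regions, 14.0% in genes with 2 to 4 and 7.65% in genes with 5 or more. Lone regions were thus the ones most often near an annotated start, and grouped regions mostly lay away from starts. Over all 3335, the next WT-only region was 7.02 kb away, and 58.5% had one within 10 kb, against 53.9% inside long genes, 31.4% at gene ends and 53.4% outside genes.

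Genes with an interior region also had Smad4 at their start more often. Among holding genes of known strand, 741 of 1718 (43.1%, 40.8 to 45.5%) had a WT-only region within 1 kb of the outermost start, against 3296 of 10895 genes holding none (30.3%, 29.4 to 31.1%). This held in each class of length, with 38.7% against 25.2% under 10 kb, 38.3% against 30.9% at 10 to 25 kb, 43.8% against 34.5% at 25 to 50 kb and 47.5% against 35.6% at 50 to 100 kb. At the far end the shares were 3.49% and 2.13%. A KO peak anywhere in the gene was also more frequent, in 86 of 2126 holding genes (4.05%, 3.25 to 4.97%) against 115 of 13614 others (0.845%, 0.698 to 1.01%), and in 12 of the 83 genes with 5 or more regions (14.5%). Holding genes were also longer, with a median of 34.2 kb against 15.8 kb, and the part of length in the KO count was not tested.

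Bcl11b, which encodes a factor that commits cells to the T lineage, held the most regions, 14 in 93.7 kb (chr12:107910403-108004145). The KO lists had no peak in it, against 26 and 20 peaks in WT replicates 1 and 2. Its regions ran in a chain over 77.6 kb with a median spacing of 2.77 kb, none within 1 kb of an annotated start. The widest measured 2330 bp in WT replicate 1 and 1240 bp in WT replicate 2 and lay 10.6 kb from the start, and the narrowest measured 240 and 242 bp. Together they covered 12.3% of the gene. Itpkb, which encodes an inositol trisphosphate kinase needed for thymocyte development, held 12 regions, and Ccnd3, the cyclin D3 gene, 11. Ago2, of the RNA-induced silencing complex, and Glb1, of lysosomal beta-galactosidase, held 10 each. Cytip, whose product binds cytohesins, Myh9 and the kinase gene Cdk17 held 9 each, and Fam169b and Ikzf1, the gene of the lymphoid factor Ikaros, held 8 each. Of these 10 genes only Cytip contained a KO peak, which KO replicate 1 called and KO replicate 2 did not, against 16 and 13 peaks in the WT lists, and that peak lay 1.18 kb from the nearest region of the set.

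Gene lists were read against the 13.5% of all genes with such territory. Of 20 T cell identity genes, 16 held a region (80.0%). The share was 7 of 10 for regulatory T cell genes, 8 of 14 for the IL-6 and STAT3 pathway, 13 of 23 for inhibitors of signalling, and 11 of 20 for activation factors. It was 10 of 19 for chromatin regulators, 8 of 16 for the Th17 program, 6 of 12 for Th1 genes, 5 of 10 for Th2 genes, 7 of 16 for glycolysis and 11 of 26 for the TGF-β and SMAD pathway. No region lay inside any of the 8 B cell, 8 myeloid, 8 hepatocyte or 6 neuron marker genes with territory. These marker lists had median lengths of 10.3 to 20.3 kb, and 11.1% of all genes of 10 to 25 kb held a region. Beside that share, a count of 0 in so few genes per list says little. The median length of listed genes ran from 10.3 kb for B cell markers to 56.4 kb for chromatin regulators. The shares of the 11 filled lists ran from 42.3 to 80.0%, and 28.7% of all genes of 50 to 100 kb held a region. The part of gene length in the list shares was not tested. The lists were assembled with earlier results of these data known, so the counts are a description and not independent evidence. Some genes stand in 2 lists, such as Stat3, Batf, Irf4, Gata3 and Satb1.

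**Figure D5:**
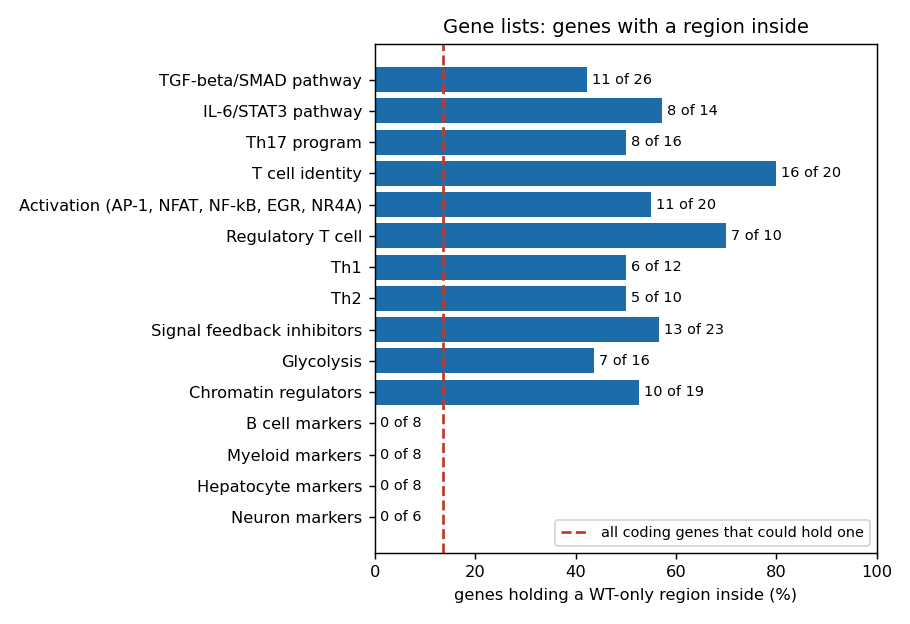
Percent of the genes of each list, among those with territory of this kind, that hold a WT-only region inside, with the counts printed beside the bars. The dashed line is the 13.5% of all 15740 such genes. Of the lists, 11 lie between 42.3 and 80.0%. The 4 marker lists of other cell types, with 6 to 8 genes each, are at 0.

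In the TGF-β and SMAD pathway, the 11 genes with regions included the corepressor genes Ski, Skil and Tgif1 and the inhibitory SMAD genes Smad7 and Smad6. Ski, the corepressor gene of the study's title, held 7 regions over 57.8 kb of its 68.5 kb (chr4:155154075-155222535, minus strand). The KO lists had no peak in Ski, against 10 and 9 peaks in the WT lists. The widest of the 7, at chr4:155162032-155163175, measured 1144 and 1082 bp in WT replicates 1 and 2 and lay 59.9 kb from the start, near the far end. The region closest to the start lay 2.11 kb from it, with 804 and 534 bp, and the narrowest had 300 and 242 bp. The closest KO peak was 787 kb away. Ski also had a WT-only region within 1 kb of its start.

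Skil, the gene of the related corepressor SnoN, held 4 regions with widths of 568 to 984 bp in WT replicate 1 and 376 to 1174 bp in WT replicate 2. Unlike Ski it contained KO peaks, 1 in each KO replicate, against 5 peaks in each WT replicate, and the nearest lay 2.56 kb from a region. Smad7, which encodes the inhibitory SMAD that SMAD signalling itself induces, held 5 regions that covered 22.1% of its 28.6 kb. Its widest measured 2246 and 2302 bp in WT replicates 1 and 2. There was 1 peak of KO replicate 1 and 0 of KO replicate 2 in Smad7, against 11 and 7 in the WT lists, and that KO peak met another WT region, which the choice left out. Tgfbr2, the type II receptor gene, held 5 regions, the widest of 1526 and 1326 bp at 21.7 kb from the start, and no KO peak. Pmepa1 held 3 regions and Tgif1 2, each with one of the widest of the set.

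Ltbp4, which encodes a protein that holds latent TGF-β in the matrix, held 4 regions, the activin receptor gene Acvr1b 3, Smad6 2 and Smad2 1. Smad4 itself held 1, at chr18:73643046-73643489, with 302 bp in WT replicate 1 and 444 bp in WT replicate 2. A second WT region inside Smad4 met a peak of KO replicate 1 and was left out, and KO replicate 2 had no peak in the gene. Peaks do not show whether the floxed part was deleted. The 15 pathway genes without a region included the ligand gene Tgfb1 and the type I receptor gene Tgfbr1, which had a WT-only region at a gene end instead. Smad3 was over the length limit.

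On the IL-6 side, Il6ra, the gene of the receptor's ligand-binding chain, held 5 regions, with no KO peak against 11 and 10 WT peaks. Its regions lay in the far part of the gene, between 25.4 and 41.2 kb from the start, and the widest measured 2018 and 2078 bp. Stat3, which carries the IL-6 signal to the nucleus, held 3, of which the widest measured 1146 and 1196 bp and lay 18.2 kb from the start. Stat3 contained 1 KO peak, in KO replicate 1, against 6 and 5 WT peaks. Jak2, the receptor kinase gene, held 3, and Bcl6, a repressor that directs follicular helper cells, held 2 of 1544 to 1656 bp in WT replicate 1 and 1076 to 1694 bp in WT replicate 2. Il6st, the gene of the signalling chain gp130, held none inside and had a WT-only region at a gene end.

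Among Th17 genes, regions lay in several regulator genes and in the cytokine gene Il21. Hif1a held 2, one over the start printed above with 2464 and 1466 bp. Batf, a bZIP factor gene, held 2, the wider of 1612 and 1432 bp in the last part of the gene. Nfkbiz, Irf4, Il21 and Il1r1 held 1 each. Il17a and Il17f, the genes of the signature cytokines, held none, had none at their ends and no KO peak. Their lengths of 3592 and 8129 bp fall in the class under 10 kb, where 3.91% of genes held a region.

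T cell identity genes had the highest share of the 15 lists. Beside Bcl11b, Cd28, the costimulatory receptor gene, held 6 regions, and Satb1, a chromatin organiser gene, held 5. Neither of them held a KO peak. Cd4 held a single region of 452 and 504 bp, 144 kb from the closest KO peak. Gata3 held 3, the widest of which, at chr2:9878190-9879771, covered the start printed above. Cd3d, Cd5, Cd6 and Cd27 held none.

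Il2ra, the gene of the high-affinity IL-2 receptor chain CD25, was the case with most KO signal among the named genes. KO replicates 1 and 2 had 3 and 1 peaks in it, against 9 and 10 in WT replicates 1 and 2. It held 5 regions of the set, of 710 to 1732 bp in WT replicate 1 and 698 to 1192 bp in WT replicate 2, and 3 of them lay between 1.40 and 1.99 kb from a KO peak. A further 2 reproducible WT regions in Il2ra met a KO peak and were left out. Capg held 2 regions, and Tnfrsf9 held 1 of 2006 and 1280 bp and Nt5e 1 of 1074 and 970 bp, all without a KO peak in the gene.

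Of the remaining lists, Nfil3 held 3 regions, Il1rl1 and Il4ra 2 each among Th2 genes, and Txk, Il12rb2 and Il18r1 2 each among Th1 genes. Txk also held 1 peak of each KO replicate, against 6 and 4 WT peaks. Among inhibitors of signalling, the phosphatase gene Dusp10 held 5 narrow regions, of at most 492 bp in WT replicate 1 and 368 bp in WT replicate 2, and Tnip1 and Ptpn22 held 4 each and Rasa2 3. Nfkb2, Nr4a3 and Nr4a1 held 2 each among activation genes. In glycolysis, Hk2, the hexokinase 2 gene, held 4, of which the one nearest the start differed between libraries, with 2478 bp in WT replicate 1 and 742 bp in WT replicate 2, and ran 57 bp past the gene end. Pfkp held 3, Slc2a1 2 and Pkm 1 of 1896 and 1436 bp. Among chromatin regulators, Arid1a and Kmt2a held 3 each and Sin3a 2, and Kmt2a alone of the 3 contained KO peaks, 1 in each replicate.

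The territory held the midpoints of 389 microRNA hairpins, and 6 hairpins lay in a region. The 6 were counted by overlap with a region, not by midpoint. The share of the territory that regions cover was not computed, so the count is only a description. The 6 were Mir7058 in Lat, Mir1931 in Cdk17, Mir12181 in Coro6, Mir7653 in Tlcd1, Mir7008 in Prkci and Mir5620 in Clcn4. The widest of these regions, in Tlcd1, measured 2264 and 1306 bp, and the narrowest, in Prkci, 466 and 302 bp. Mir7058 lies in Lat (chr7:126367971-126368045), the adaptor of T cell receptor signalling, under peaks of 494 and 584 bp, and Mir1931 lies in Cdk17 (chr10:93162785-93162903), one of the 10 genes with most regions, under peaks of 814 and 604 bp. Their mature sequences from RefSeq are shown with the seed, bases 2 to 8, in capitals, and no seed was shared.
mmu-miR-7058-5p: uAGAGGGGaggugaccguggaagu
mmu-miR-7058-3p: cUCGUUCCuuccuuucuuccag
mmu-miR-1931: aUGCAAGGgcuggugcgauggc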

How the data were processed

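Smad4 ChIP-seq peak lists of 2 KO and 2 WT samples were used. The authors deposited each list as chromosome, start and end, with no score or other value per peak. Starts were shifted here to give 1-based mm10 positions. The 4 input samples were not analysed. HOMER 4.8.3, Bowtie, Trim Galore and mm10 are listed, without roles, in the submitters' processing notes; how peaks were called and how deep the libraries are is not given in the sources used here. Peak number and width may therefore follow depth and calling as well as binding, which was not tested.

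Peaks that met by 1 bp were merged, and regions were placed on 21779 coding genes of a RefSeq table on GRCm38.p6, which lists no exons. Genes starting below 3 Mb were left out. Strand and alternative starts came from a RefSeq promoter table that is not complete. Territory is all bases that satisfy the position rule. The members and gene lists were chosen with earlier results of these data known. No test was run, because the peak calls chose the regions. Shares carry exact 95% Clopper-Pearson intervals.

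Genes were named by rule: the 10 widest regions, the 10 genes with most regions, up to 4 genes per list, Ski, Skil, Smad4, Smad7, Cd4, Stat3 and Il2ra, regions at thresholds and regions over a reference sequence. Other list genes were named after their values were seen, and of the regions over a start 7 are shown. The region rule was tested on simulated intervals. Alternatives changed overlap, distances, length limit, widths and libraries. Python 3.11.15, numpy 2.4.6, pandas 2.3.3, SciPy 1.17.1 and matplotlib 3.10.9 were used. A few genes taken by the naming rule are left out of the text.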

Additional observations from a re-analysis of the deposited data

How the results depend on the processing

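Over the 14 alternatives, the share of regions nearer the start than the far end stayed between 64.31 and 70.25%. A replicate block, pairing WT replicate 1 with KO replicate 1 and WT replicate 2 with KO replicate 2, left the 3335 regions as they were, and the labels do not say that numbers pair the samples. The share of genes with a region was 12.27% when peaks had to overlap by 50%, 11.14% when centres had to lie within 100 bp, 11.47% when both peaks had to exceed the smallest width, 15.02% at over 500 bp and 12.36% at over 2 kb from gene ends, and 10.8% and 15.36% for length limits of 50 and 200 kb. The share near a start was 17.03% with centres within 100 bp, 21.64% above the smallest width, 28.58% and 15.65% at 500 bp and 2 kb, and 23.89% and 17.12% at 50 and 200 kb. The share nearer the start than the far end was 64.79% with centres within 100 bp and 70.25% and 64.31% at 500 bp and 2 kb. Genes under 50 kb held 1957 regions. The 1660 wider regions lay in 1205 genes (7.656%), at 4.554 per Mb, with 26.83% near a start, 69.58% nearer the start and widths of 813 and 679 bp. Leaving out each library gave 3364 to 6075 regions, the highest without WT replicate 2 and 4154 without WT replicate 1, in 2139 to 3181 genes (13.59 to 20.21%) and at 9.228 to 16.67 per Mb, with 15.38 to 19.96% near a start, 66.32 to 67.35% nearer the start and widths of 422 to 564 bp in WT replicate 1 and 421 to 450 bp in WT replicate 2. Of 210 recounts of gene lists, 199 stayed within 1.5 times. Of 110 recounts of the other results, 79 stayed and 31 moved. A move was a share outside its 95% interval, a count or density beyond 1.5 times, or a width beyond 79.2 bp. The list of chromatin regulators had 1 gene with a region at the 50 kb limit. One B cell marker gene entered at 200 kb, and without WT replicate 2 there were 2 myeloid genes and 1 neuron gene. The longer KLF/SP form was found in 23.6% of covered and 8.77% of uncovered internal start windows, against 15.35% of all. Motif windows of 200 and 500 bp around region centres were not run, as no genome was used here. With no peak score, the wider regions stood in for a stricter threshold. Depth is unknown, so no floor can be given.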
